A study of Homo sapiens with 8 samples.

Results

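Elastic fibre genes were followed in HMLE, an immortalized epithelial cell line from the human breast. The group was defined by name and comprised 10 genes: the fibrillins FBN1 and FBN2, the microfibril-associated glycoproteins MFAP2 and MFAP5, elastin (ELN), the fibulins FBLN1, FBLN5 and EFEMP2, and the lysyl oxidases LOX and LOXL2. Together they had 36 of the 48175 RefSeq transcripts in the deposited table, which was matched to 25162 gene symbols in all. An elastic fibre is an elastin core laid down on a scaffold of fibrillin microfibrils. Fibulins bring tropoelastin and lysyl oxidase to that scaffold, and lysyl oxidases oxidize lysines so that the chains cross-link. Fibrillin microfibrils also bind latent TGF-β complexes, and many genes of this matrix are known targets of TGF-β in fibroblasts.

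The cells carried either a lentiviral scrambled shRNA or 1 shRNA directed at SOX4, a SoxC transcription factor, and all of them were kept under puromycin at 0.5 µg/mL. Each kind of cell was left untreated or exposed to TGF-β for 16 h, which gave 4 groups of 2 libraries. The line, the single shRNA sequence and the single time limit what the groups stand for, and the TGF-β dose is not given in the sources used here. Whether both libraries of a group come from cultures of their own is not labelled, so the p-values measure a spread between libraries that may be technical.

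Values are FPKM, reads scaled by transcript length and by library size, and can therefore be compared between genes. The libraries' scale was 12.6 to 16.8 M reads. The targeted gene, SOX4 (chromosome 6, 21593982 to 21598850, plus strand, GRCh37, 1 exon), stood at 8.74 and 8.04 FPKM in the untreated scrambled-shRNA libraries and at 0.923 and 1.02 FPKM in untreated SOX4-shRNA cells. With TGF-β it stood at 18.7 and 17.6 FPKM against 2.37 and 1.88 FPKM. Its level was lower in every library with the SOX4 shRNA, as labelled, although the reading of its lost decimal marks had a posterior of 0.9384 and SOX4 was therefore given no test. The epithelial label was checked on KRT5 and KRT14, keratins of basal epithelium, which were at 2886 to 3945 and 1446 to 2875 FPKM in the 8 libraries.

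The 4 members that fell with the SOX4 shRNA in untreated cells (FBN1, FBLN5, MFAP2 and LOX, below) are shown by the start region that RefSeq (GRCh38.p14) lists first for each, 250 bases before to 50 bases after the transcription start. They are printed 5′ to 3′ so that the starts of genes that moved together can be set side by side. Capitals mark matches on either strand to 5 short motifs. These are CAGAC, the core bound by SMAD proteins that carry the TGF-β signal, then AACAAAG, a core bound by SOX proteins in general, with a second form of the same core written AACAATG, then TGAGTCA, the site bound by the AP-1 family of transcription factors, and last the TATA box, searched as TATAAA.
FBN1, chr15:48644921-48645220, minus strand: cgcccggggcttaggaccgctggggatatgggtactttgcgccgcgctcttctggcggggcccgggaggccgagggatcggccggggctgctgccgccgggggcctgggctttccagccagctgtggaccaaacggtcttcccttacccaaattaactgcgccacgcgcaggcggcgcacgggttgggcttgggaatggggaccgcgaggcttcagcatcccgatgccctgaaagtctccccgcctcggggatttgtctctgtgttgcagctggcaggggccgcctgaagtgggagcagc
FBLN5, chr14:91947645-91947944, minus strand: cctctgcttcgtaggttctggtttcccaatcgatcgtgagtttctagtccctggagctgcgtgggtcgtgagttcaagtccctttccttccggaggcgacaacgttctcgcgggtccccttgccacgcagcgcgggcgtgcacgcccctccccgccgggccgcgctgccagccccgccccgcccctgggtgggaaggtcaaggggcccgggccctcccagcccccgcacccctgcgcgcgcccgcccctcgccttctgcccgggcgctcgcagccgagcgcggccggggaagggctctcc
MFAP2, chr1:16981534-16981833, minus strand: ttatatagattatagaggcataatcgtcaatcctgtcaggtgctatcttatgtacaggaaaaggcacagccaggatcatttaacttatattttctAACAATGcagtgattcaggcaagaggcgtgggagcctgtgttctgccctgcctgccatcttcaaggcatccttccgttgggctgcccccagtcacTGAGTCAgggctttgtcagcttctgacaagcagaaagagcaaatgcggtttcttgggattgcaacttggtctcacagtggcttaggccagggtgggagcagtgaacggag
LOX, chr5:122078210-122078509, minus strand: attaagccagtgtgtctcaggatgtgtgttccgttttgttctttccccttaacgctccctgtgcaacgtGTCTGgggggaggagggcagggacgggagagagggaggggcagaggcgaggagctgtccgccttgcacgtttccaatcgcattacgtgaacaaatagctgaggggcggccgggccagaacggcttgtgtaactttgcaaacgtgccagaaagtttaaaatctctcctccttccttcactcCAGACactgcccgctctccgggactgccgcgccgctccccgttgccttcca
The FBN1 and FBLN5 windows held none of the 5 motifs. The LOX window held CAGAC at 2 places, a motif present in 45.3% of the 35116 windows of this length in the table. The MFAP2 window held the SOX core AACAATG once and the AP-1 site once, which were present in 3.33% and 4.95% of all windows. The other SOX core and the TATA box were present in 5.2% and 11.5%. The motifs do not overlap one another in these windows. RefSeq lists a second start region for FBLN5, which held CAGAC and the TATA box, and a second one for MFAP2, which held CAGAC but neither the SOX core nor the AP-1 site. The 2 further LOX regions held CAGAC at 2 places each. A match is a run of letters and was not tested for binding. A start region was found in the table for 7 of the 10 members.

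Of the 10 members, 6 had values resolved to whole reads and reached 1 FPKM in at least 2 libraries, and these were tested with limma among 6482 genes on the log2(FPKM + 1) scale. In scrambled-shRNA cells TGF-β raised 3 of the 6, FBN1, MFAP2 and LOX, where 4.66% of all genes tested rose, and none of the 6 fell. In SOX4-shRNA cells it raised 3 of the 6, MFAP2, LOX and LOXL2, where 5.54% of all genes rose. The SOX4 shRNA lowered 4 of the 6 in untreated cells, FBN1, FBLN5, MFAP2 and LOX, where 3.67% of all genes fell. With TGF-β present it lowered FBN1, FBN2, FBLN5 and LOX, again 4 of the 6, where 2.92% of all genes fell. The median log2 fold changes of the 6 in these comparisons, in the same order, were 0.61, 0.59, -1.26 and -0.96, beside -0.03, -0.04, 0.00 and 0.02 over all genes tested. In the fit of all kept genes, which adds genes without whole reads, 8 members were tested. There TGF-β raised 2 on each background, and the SOX4 shRNA lowered 4 untreated and 3 with TGF-β. In the same order, 2.86%, 3.47%, 2.29% and 1.75% of the genes in that fit were called in either direction. The 6 tested on whole reads are not all members, and comparisons that share a group are not independent of each other. MFAP2, with 4 transcripts, entered by a search made for it alone, and no other gene with more than 2 transcripts was searched. The shares over all genes tested on whole reads thus hold no other gene of that kind.

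**Figure D1:**
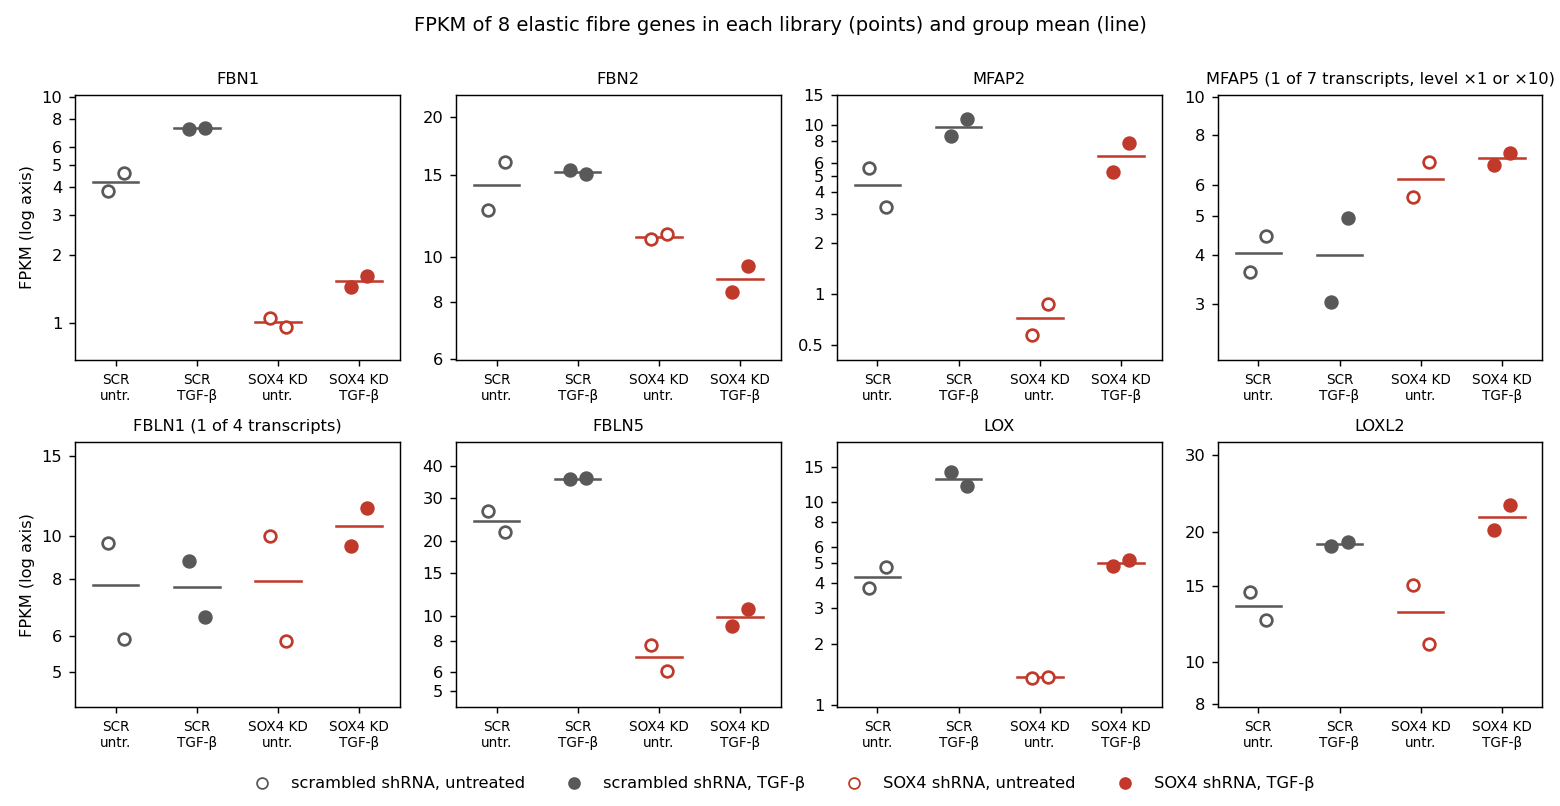
FPKM (log axes that differ between panels) of 8 elastic fibre genes in each of the 8 libraries (points, 2 per group) with a line at each group mean. Scrambled shRNA is drawn in grey and SOX4 shRNA in red, with open symbols for untreated and filled symbols for TGF-β. Both FBN1 and FBLN5 lay lower in all 4 SOX4-shRNA libraries than in any scrambled one, LOX rose with TGF-β on both backgrounds, and LOXL2 overlapped between the untreated groups.

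The levels of the 6 members with whole reads were set in order within each group. MFAP5, whose other reading is 30.4 to 72.4 FPKM, could stand among or above them. Its place and that of FBLN1 (5.83 to 11.5 FPKM for 1 of 4 transcripts) are not part of this order. Among the 6, in untreated scrambled-shRNA cells FBLN5 was highest at 24.1 ± 3.28 FPKM (SD, n = 2, as for all levels below), above FBN2 at 14.3 ± 2.40 and LOXL2 at 13.5 ± 1.41, whose libraries overlapped. MFAP2 at 4.41 ± 1.63, LOX at 4.28 ± 0.714 and FBN1 at 4.22 ± 0.538 FPKM followed and could not be ordered, since their libraries overlapped. In untreated SOX4-shRNA cells LOXL2 and FBN2 came first at 13.1 ± 2.88 and 11.1 ± 0.259 FPKM, with overlapping libraries, and FBLN5 next at 6.87 ± 1.17. There LOX, FBN1 and MFAP2 held 1.37, 1.01 and 0.728 FPKM, and no library of one overlapped the next. With TGF-β, FBLN5 led the 6 in scrambled-shRNA cells at 35.7 ± 0.148 FPKM and LOXL2 in SOX4-shRNA cells at 21.6 ± 1.94.

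FBN1 (chromosome 15, 48700510 to 48937918, minus strand, GRCh37, 66 exons) encodes fibrillin-1, the main backbone of microfibrils. It stood at 3.84 and 4.60 FPKM in the untreated scrambled-shRNA libraries and at 7.19 and 7.33 FPKM with TGF-β. With the SOX4 shRNA it stood at 1.05 and 0.959 FPKM untreated and at 1.44 and 1.61 FPKM with TGF-β. No libraries of any of these 4 pairs of groups overlapped, and the highest SOX4-shRNA library with TGF-β lay below the lowest untreated scrambled one. The mean was 4.2 times lower with the SOX4 shRNA in untreated cells and 4.75 times lower with TGF-β. Both differences passed, with log2 fold changes of -1.38 ± 0.13 (SE, limma adjusted p = 0.0011) and -1.71 ± 0.13 (limma adjusted p = 6.9e-04), and both calls held without any 1 library. TGF-β raised FBN1 by 0.67 ± 0.13 in scrambled-shRNA cells (limma adjusted p = 0.021). The value in SOX4-shRNA cells was 0.33 ± 0.13 (limma adjusted p = 0.15), and 0.56 with 0.1 FPKM added in place of 1. The call in scrambled-shRNA cells was lost without any 1 of the 4 libraries compared, at limma adjusted p-values of 0.068 to 0.18. FBN1 was read from 168 to 1228 whole reads per library.

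FBN2 (chromosome 5, 127593601 to 127994878, minus strand, GRCh37, 65 exons) encodes fibrillin-2, a microfibril protein best known from developing tissue. It was the member of this pair with the higher level in every library, at 12.6 and 16.0 FPKM in untreated scrambled-shRNA cells and 15.4 and 15.1 FPKM with TGF-β. In SOX4-shRNA cells it stood at 10.9 and 11.2 FPKM untreated and 8.38 and 9.54 FPKM with TGF-β. The treated scrambled libraries fell within the range of the untreated ones, and each library with the SOX4 shRNA was lower than each scrambled one. The SOX4 shRNA lowered FBN2 with TGF-β present by a log2 fold change of -0.71 ± 0.14 (limma adjusted p = 0.028). In untreated cells the value was -0.34 ± 0.14 (limma adjusted p = 0.23). The TGF-β values were 0.09 ± 0.14 in scrambled-shRNA and -0.28 ± 0.14 in SOX4-shRNA cells (limma adjusted p = 0.72 and 0.26). The call was lost without any 1 of the 4 treated libraries, at limma adjusted p-values of 0.063 to 0.23, and at 0.053 in the fit of all kept genes. Exon sequence of FBN2 is overlapped on the opposite strand by SLC27A6, and whether reads were counted by strand is not known from the sources used here.

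MFAP2 (chromosome 1, 17300997 to 17307127, minus strand, GRCh37, 9 exons) encodes MAGP-1, a small glycoprotein of the microfibril that binds fibrillins. Summed over its 4 transcripts it stood at 5.57 and 3.26 FPKM in untreated scrambled-shRNA cells, which are 84 and 37 reads, and at 8.64 and 10.8 FPKM with TGF-β, which are 115 and 133 reads. In untreated SOX4-shRNA cells it stood at 0.574 and 0.882 FPKM, from 7 and 12 reads. With TGF-β these cells held 5.25 and 7.85 FPKM, from 66 and 107 reads. The untreated SOX4-shRNA libraries were thus far below every other library, while of the treated ones 1 lay within the range of untreated scrambled-shRNA cells and 1 above it.

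The mean of MFAP2 was 9.0 times higher with TGF-β in SOX4-shRNA cells and 2.21 times higher in scrambled-shRNA cells. The log2 fold changes were 2.11 ± 0.24 (limma adjusted p = 0.0022) and 1.01 ± 0.24 (limma adjusted p = 0.047). The difference between them, 1.10 ± 0.35, had an unadjusted p of 0.013 in limma's fit over all 4 groups and an adjusted p of 1.0. With 0.1 FPKM added in place of 1 it was 1.84, at a limma adjusted p of 0.99. The SOX4 shRNA lowered MFAP2 in untreated cells by a log2 fold change of -1.62 ± 0.24 (limma adjusted p = 0.010), and the value with TGF-β was -0.52 ± 0.24 (limma adjusted p = 0.33). The rise in scrambled-shRNA cells was lost without any 1 of the 4 libraries compared and with 0.1 FPKM added (limma adjusted p = 0.064). It was also lost in the fit of all kept genes (limma adjusted p = 0.083), with the replicate number as a block (0.092) and by voom (0.053). The fall in untreated cells was lost without the first untreated scrambled library, where it was -1.31 (limma adjusted p = 0.072). Exon sequence of MFAP2 is overlapped on the opposite strand by an unnamed gene, ENSG00000286898 in GENCODE.

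The transcripts of MFAP2 did not keep the same shares. NM_002403 held all but traces of the gene's FPKM in both untreated scrambled libraries and in both SOX4-shRNA libraries with TGF-β, and 81.6% and 70% in scrambled-shRNA cells with TGF-β. In the untreated SOX4-shRNA libraries it held 0.0%, and NM_001135247 held 85.7% and 92.2%. That transcript was at 0.492 and 0.813 FPKM there and at 0.00407 FPKM or less in the other 6 libraries. These shares are Cufflinks estimates from 7 and 12 reads and were given no test.

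**Figure D2:**
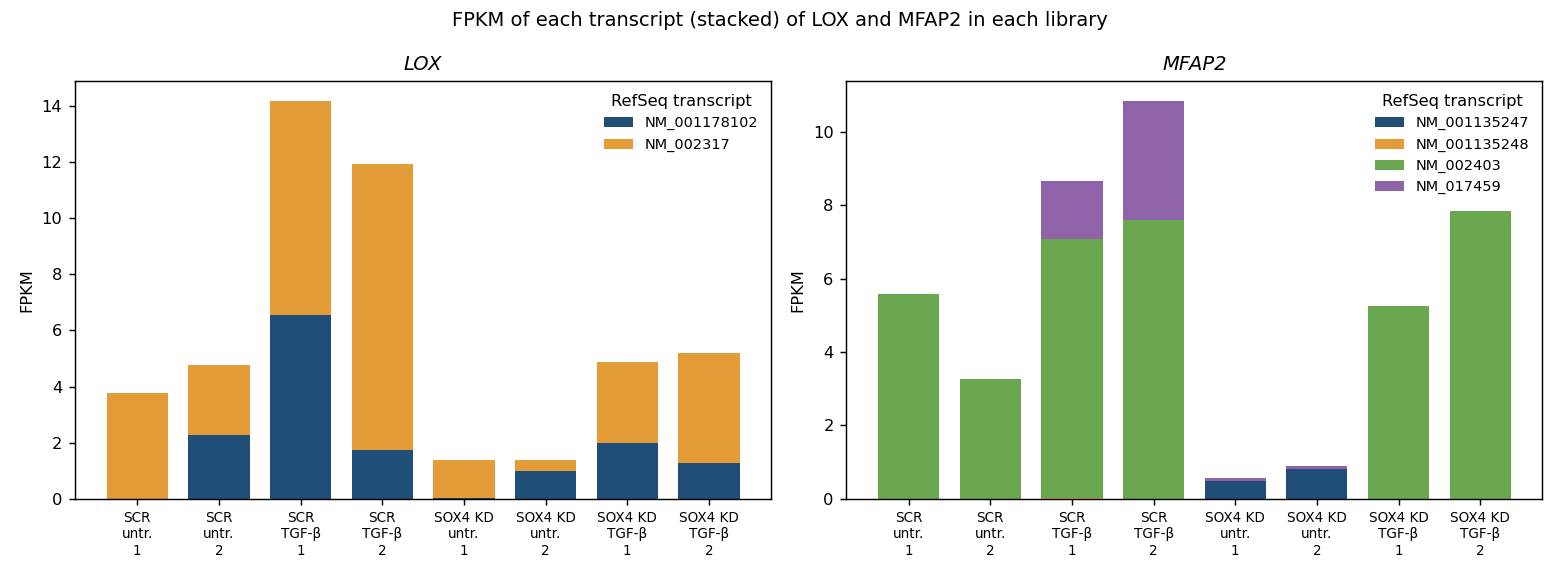
Stacked bars of the FPKM of each RefSeq transcript of LOX (left) and MFAP2 (right) in each library, with linear axes from 0. The 2 LOX transcripts split differently in the 2 libraries of a group, and NM_001135247 of MFAP2 is seen in the untreated SOX4-shRNA libraries, where the gene's total is 0.574 and 0.882 FPKM.

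MFAP5 (chromosome 12, 8789942 to 8815484, minus strand, GRCh37, 10 exons) encodes MAGP-2, the other microfibril-associated glycoprotein of the group. Its level could not be settled, because MFAP5, with 7 transcripts, was not searched for whole reads. NM_003480, the transcript taken to stand for the gene, read as 3.61, 4.47, 3.04 and 4.96 FPKM in scrambled-shRNA cells (untreated, then TGF-β). In SOX4-shRNA cells it read as 5.59, 6.84, 6.75 and 7.24 FPKM. The other reading was 10 times these values throughout. Under both readings the 4 SOX4-shRNA libraries lay above the 4 scrambled ones, opposite in direction to MFAP2. In the limma fit of all kept genes the log2 fold change with the SOX4 shRNA was 0.52 ± 0.20 in untreated cells (adjusted p = 0.27) and 0.71 ± 0.20 in treated ones (adjusted p = 0.16). Read at 10 times the level it was 0.61 and 0.83. Both comparisons had an unadjusted limma p under 0.05. In that fit 2.29% and 1.75% of 10007 genes were called in these comparisons, and MFAP5 was not among them. For NM_003480 alone, TGF-β gave -0.03 ± 0.20 and 0.15 ± 0.20 in the 2 backgrounds (limma adjusted p = 0.95 and 0.74). The sum over the 7 transcripts was not tested, and readings with small differences between groups were favoured here too. A second coding transcript, NM_001297709, read as 1.75 to 4.0 FPKM or 10 times that in 6 of the 8 libraries and below 1 FPKM in both untreated scrambled ones. HADHAP2, a pseudogene, overlaps exon sequence of MFAP5 on the opposite strand.

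FBLN5 (chromosome 14, 92335755 to 92414331, minus strand, GRCh37, 11 exons) encodes fibulin-5, which binds tropoelastin and integrins and is needed for elastic fibre assembly. It stood at 26.4 and 21.8 FPKM in the untreated scrambled-shRNA libraries and at 35.6 and 35.8 FPKM with TGF-β. With the SOX4 shRNA it stood at 7.70 and 6.04 FPKM untreated and 9.18 and 10.7 FPKM with TGF-β. Treated libraries lay above untreated ones on both backgrounds, but every SOX4-shRNA library lay below every scrambled one. The SOX4 shRNA lowered FBLN5 3.5-fold in untreated cells and 3.60-fold with TGF-β, at log2 fold changes of -1.67 ± 0.15 (limma adjusted p = 0.0010) and -1.75 ± 0.15 (limma adjusted p = 0.0011). Both calls held without any 1 library. The TGF-β values, 0.55 ± 0.15 in scrambled-shRNA and 0.48 ± 0.15 in SOX4-shRNA cells, did not pass (limma adjusted p = 0.064 and 0.099). The first passed in some alternatives, among them the compared groups alone (limma adjusted p = 0.012) and voom (0.045). The first did not pass with the replicate number as a block (limma adjusted p = 0.12) or in the fit of all kept genes (0.099). With 1 library left out it was 0.42 to 0.69. Both TGF-β values passed with the replicate numbers of treated libraries crossed (limma adjusted p = 0.0035 and 0.0072). That alternative was added after seeing the data.

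FBLN1 (chromosome 22, 45898118 to 45997015, plus strand, GRCh37, 17 exons) encodes fibulin-1, found in elastic fibres and basement membranes. FBLN1, with 4 transcripts, was not searched for whole reads. Its values therefore rest on how alike the libraries of a group, and the group means, are. Readings with small differences between groups were favoured, so the tests below cannot show that FBLN1 was unchanged. NM_006486, highest on average at the lowest readings, was taken to stand for the gene. It read as 9.64 and 5.90 FPKM in untreated scrambled-shRNA cells and 8.76 and 6.60 FPKM with TGF-β. In SOX4-shRNA cells it read as 10 and 5.83 FPKM untreated and as 9.50 and 11.5 FPKM with TGF-β. The digits of the last library allow only 1.15 or 11.5 FPKM, and a common level 10 times higher is not among the possible readings. The groups overlapped in 3 of the 4 comparisons, and the spread within untreated pairs exceeded the difference between their means. In the limma fit of all kept genes the 4 log2 fold changes lay between 0.01 ± 0.28 and 0.41 ± 0.28, none was called (limma adjusted p = 0.50 to 0.99) and none had an unadjusted p under 0.05, where 2.86%, 3.47%, 2.29% and 1.75% of all genes were called. Another transcript, NM_001996, read as 1.43 to 2.46 FPKM at the lowest reading. A reading of 14.3 to 24.6 FPKM is also possible and would place it above NM_006486, so the level of the gene is not settled. The remaining transcripts were below 1 FPKM in all 8 libraries.

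EFEMP2 (chromosome 11, 65633912 to 65641063, minus strand, GRCh37, 11 exons) encodes fibulin-4, which carries LOX to the forming fibre. It was near the limit of detection, at 0.344, 0.127, 0.349 and 0.312 FPKM in scrambled-shRNA cells and 0.309, 0.242, 0.165 and 0.460 FPKM in SOX4-shRNA cells, from 3 to 13 reads per library. The groups overlapped in every comparison, and a difference was not detectable at this depth. Exons of MUS81 overlap it on the opposite strand.

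Elastin itself was hardly measured. ELN (chromosome 7, 73442119 to 73484237, plus strand, GRCh37, 33 exons) was listed at 0 in 5 of the 8 libraries over its 13 transcripts. The others were the second untreated scrambled library at 0.0234 FPKM, the first untreated SOX4-shRNA library at 0.0442 FPKM and the first SOX4-shRNA library with TGF-β at 0.0219 FPKM. RNA for the scaffold genes FBN1 and FBN2 reached 7.33 and 16.0 FPKM. ELN and EFEMP2 did not pass the filter on low values and were not tested.

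LOX (chromosome 5, 121398890 to 121414108, minus strand, GRCh37, 7 exons) encodes lysyl oxidase, the enzyme that starts the cross-linking of elastin and collagen. Summed over 2 transcripts it stood at 3.77 and 4.78 FPKM in the untreated scrambled-shRNA libraries and at 14.2 and 12 FPKM with TGF-β. With the SOX4 shRNA it stood at 1.36 and 1.38 FPKM untreated and at 4.88 and 5.18 FPKM with TGF-β. Treated SOX4-shRNA cells thus reached just above the untreated scrambled libraries and stayed below the treated ones. TGF-β raised LOX 3.06-fold in scrambled-shRNA and 3.67-fold in SOX4-shRNA cells, at log2 fold changes of 1.42 ± 0.14 (limma adjusted p = 0.0021) and 1.35 ± 0.14 (limma adjusted p = 0.0013). The difference of these responses was -0.07 ± 0.20 (limma adjusted p = 1.0), and it was 0.21 with 0.1 FPKM added.

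The SOX4 shRNA lowered LOX 3.12-fold in untreated cells (log2 fold change -1.15 ± 0.14, limma adjusted p = 0.0044) and 2.60-fold with TGF-β (-1.22 ± 0.14, limma adjusted p = 0.0032). The second call was lost without the first treated scrambled library, where it was -1.10 (limma adjusted p = 0.053), and the other 3 calls held without any 1 library. The split between its transcripts was not stable between libraries of a group. NM_001178102 held 0.0% and 47.5% of LOX in the untreated scrambled libraries and 0.9% and 70.2% in the untreated SOX4-shRNA ones, so only the sum is compared here. LOX was read from 94 to 973 reads per library, and exon sequence is overlapped on the opposite strand by SRFBP1.

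LOXL2 (chromosome 8, 23154410 to 23282841, minus strand, GRCh37, 14 exons) encodes lysyl oxidase-like 2, a cross-linking enzyme best known for basement membrane collagen. It stood at 14.5 and 12.5 FPKM in untreated scrambled-shRNA cells and 18.5 and 18.9 FPKM with TGF-β. In SOX4-shRNA cells it stood at 15.1 and 11 FPKM untreated and 20.2 and 23.0 FPKM with TGF-β. Treated libraries lay above untreated ones on both backgrounds, and the untreated groups overlapped. TGF-β raised LOXL2 in SOX4-shRNA cells by 0.70 ± 0.16 (limma adjusted p = 0.036), which did not pass in the fit of all kept genes (limma adjusted p = 0.061). The value in scrambled-shRNA cells was 0.44 ± 0.16 (limma adjusted p = 0.14). The difference between them was 0.26 ± 0.22 (limma adjusted p = 1.0). The call was lost in 7 of the 8 fits that left out 1 library, at limma adjusted p-values of 0.056 to 0.15, and kept only without the first untreated SOX4-shRNA library. The SOX4 shRNA gave -0.06 ± 0.16 untreated and 0.20 ± 0.16 with TGF-β (limma adjusted p = 0.87 and 0.63). LOXL2 shares exon positions with ENTPD4 on the same strand and with LOXL2-AS1 on the opposite one.

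**Figure D3:**
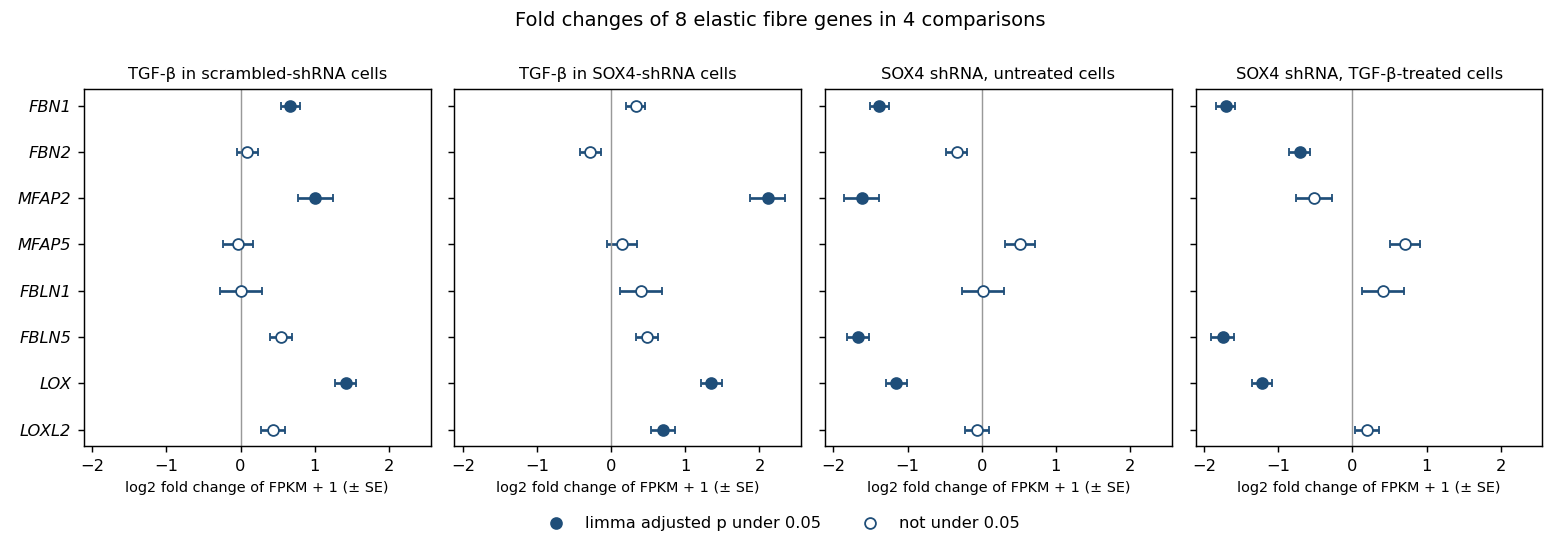
Log2 fold changes of FPKM + 1 (points) with their SE (bars) for 8 elastic fibre genes in the 4 comparisons. FBLN1 and MFAP5 come from the fit of all kept genes and the others from the fit of genes with whole reads. Filled points passed a limma adjusted p of 0.05, and FBN1 and FBLN5 lie at -1.38 to -1.75 in both comparisons of SOX4 shRNA with scrambled shRNA.

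The difference between the TGF-β responses of the 2 backgrounds was called by limma for 0 of the 6 members tested and for 0 of 6482 genes. By voom on whole reads it was also 0 of the 6. Among the 6, MFAP2 alone had an unadjusted limma p under 0.05. The data therefore do not show a different TGF-β response for FBN1 (-0.33 ± 0.18), FBN2 (-0.37 ± 0.19), FBLN5 (-0.08 ± 0.21), LOX or LOXL2.

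The members varied together to different degrees over the 8 libraries, on the log2(FPKM + 1) scale and with the group differences included. FBN1 and FBLN5 were closest (Pearson r = 0.98, 8 libraries), followed by MFAP2 and LOX (r = 0.91). LOXL2 followed neither fibrillin (r = 0.15 with FBN1 and -0.33 with FBN2). These are descriptions of the same 4 group means. Among the genes tested whose group means spanned at least 1 log2 unit, 411 apart from FBN1 itself, those most like FBN1 were ANXA6 (r = 0.994), KIAA1549L (0.994) and ABI3BP (0.992). Among those most like FBLN5 were BGN (0.991) and COL1A2 (0.990). Among those most like LOX were TNFAIP8L3 (0.999) and MOXD1 (0.990), and those most like MFAP2 were TNS4 (0.978), PLK3 (0.974) and TBX3 (0.969). FBN2 was most like GNG11 (0.948), PGK1 (0.933) and DNER (0.932), and LOXL2 was most like WNT7A, CSPG4 and ID1 (0.974 each).

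Other genes of the pathway were counted by lists. Of 17 further microfibril and elastic fibre genes, 4 were tested on whole reads. Of these 4, LTBP2, a fibrillin-binding relative of the latent TGF-β binding proteins, was called. It rose with TGF-β from 7.10 ± 0.199 to 13.9 ± 0.315 FPKM in scrambled-shRNA cells (log2 fold change 0.88 ± 0.12, limma adjusted p = 0.0066) and from 6.29 ± 0.703 to 23.1 ± 1.72 FPKM in SOX4-shRNA cells (1.73 ± 0.12, limma adjusted p = 3.2e-04). Unlike the 4 members that fell, LTBP2 was higher with the SOX4 shRNA in treated cells, by 0.69 ± 0.12 (limma adjusted p = 0.019). Its difference of responses was 0.84 ± 0.17 (limma adjusted p = 0.76). The relative EFEMP1, which encodes fibulin-3, stood at 38.2 to 59.1 FPKM as group means and was called in none, as were EMILIN3 and HSPG2. The medians of these 4 genes were 0.03 and -0.02 for TGF-β and 0.11 and 0.25 for the SOX4 shRNA. With genes lacking whole reads included, 7 of the 17 were tested, and 2 rose with TGF-β on each background, LTBP2 and FN1. FN1, named here after its values were seen, encodes fibronectin, on which fibrillin microfibrils assemble. It read as 864 ± 79.9 and 2216 ± 32.5 FPKM in scrambled-shRNA cells without and with TGF-β and as 279 ± 5.05 and 1037 ± 97.8 FPKM in SOX4-shRNA cells. In that fit FN1 was the 1 gene of the 7 that fell with the SOX4 shRNA. The log2 fold changes were -1.62 ± 0.11 untreated (limma adjusted p = 6.3e-04) and -1.10 ± 0.11 with TGF-β (limma adjusted p = 0.0041). FN1 lacks whole reads, so its values are those of 1 transcript and rest on the weighing of possible decimal readings. For such genes a common shift of the decimal mark in all libraries is not excluded, so the level of FN1 is less certain. Whether its calls hold without any 1 library is not reported here.

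Of 9 further genes for cross-linking and pro-enzyme processing, PCOLCE and LOXL1 were tested. PCOLCE, an enhancer of procollagen C-proteinase, fell with the SOX4 shRNA from 2.50 ± 0.619 to 0.750 ± 0.160 FPKM untreated (-0.99 ± 0.17, limma adjusted p = 0.015) and from 1.83 ± 0.172 to 0.624 ± 0.169 FPKM with TGF-β (-0.80 ± 0.17, limma adjusted p = 0.036). LOXL1, the lysyl oxidase-like enzyme tied to elastin, was at 7.78 ± 0.115 and 3.54 ± 1.88 FPKM in the untreated groups and was not called there (-1.02 ± 0.29, limma adjusted p = 0.098). Of 8 ADAMTS and ADAMTS-like genes, 3 were tested. ADAMTS6 rose with TGF-β on both backgrounds (0.63 ± 0.14, limma adjusted p = 0.031, and 1.08 ± 0.14, limma adjusted p = 0.0032) and fell with the SOX4 shRNA in untreated cells (-0.74 ± 0.14, limma adjusted p = 0.021), while THSD4 and ADAMTSL5 were not called in any comparison. When genes lacking whole reads were also fitted, the fall of PCOLCE with TGF-β and the rise of ADAMTS6 in scrambled-shRNA cells did not pass (limma adjusted p = 0.072 and 0.057).

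Of 11 integrins and elastin receptor genes, 4 were tested. ITGA5, a chain of the fibronectin receptor, rose with TGF-β from 74.5 ± 2.63 to 132 ± 3.64 FPKM in scrambled-shRNA cells (0.82 ± 0.13, limma adjusted p = 0.011) and from 61.6 ± 6.65 to 143 ± 17.6 FPKM in SOX4-shRNA cells (1.20 ± 0.13, limma adjusted p = 0.0013). ITGB5 rose in SOX4-shRNA cells (0.96 ± 0.14, limma adjusted p = 0.0057), and its value in scrambled-shRNA cells was 0.40 ± 0.14 (limma adjusted p = 0.14). Its difference of responses, 0.57 ± 0.20, was not called (limma adjusted p = 1.0). ITGB8 and NEU1 were not called. With the SOX4 shRNA none of these 4 was called.

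Of 10 genes for elastin-degrading proteases, 4 were tested. MMP2, gelatinase A, had the pattern of LOX: 3.73 ± 0.185 and 10.1 ± 1.0 FPKM in scrambled-shRNA cells without and with TGF-β, and 0.977 ± 0.349 and 5.06 ± 0.725 FPKM in SOX4-shRNA cells. All 4 of its comparisons passed, with log2 fold changes of 1.23 ± 0.16 and 1.62 ± 0.16 for TGF-β (limma adjusted p = 0.0058 and 0.0011) and -1.27 ± 0.16 and -0.87 ± 0.16 for the SOX4 shRNA (limma adjusted p = 0.0053 and 0.023). MMP14, a membrane-bound protease that activates MMP2, rose with TGF-β on both backgrounds (0.95 ± 0.12 and 1.4 ± 0.12, limma adjusted p = 0.0045 and 6.2e-04) and fell with the SOX4 shRNA in untreated cells (-0.66 ± 0.12, limma adjusted p = 0.018). CTSS and CTSK were not called. The fit of whole reads gave 18 calls on these further genes. Of these, the 6 for TGF-β in SOX4-shRNA cells and that for the fall of MMP2 in untreated cells held without any 1 library. The other 11 were each lost in at least 1 of the 8 fits that left out a library.

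**Figure D4:**
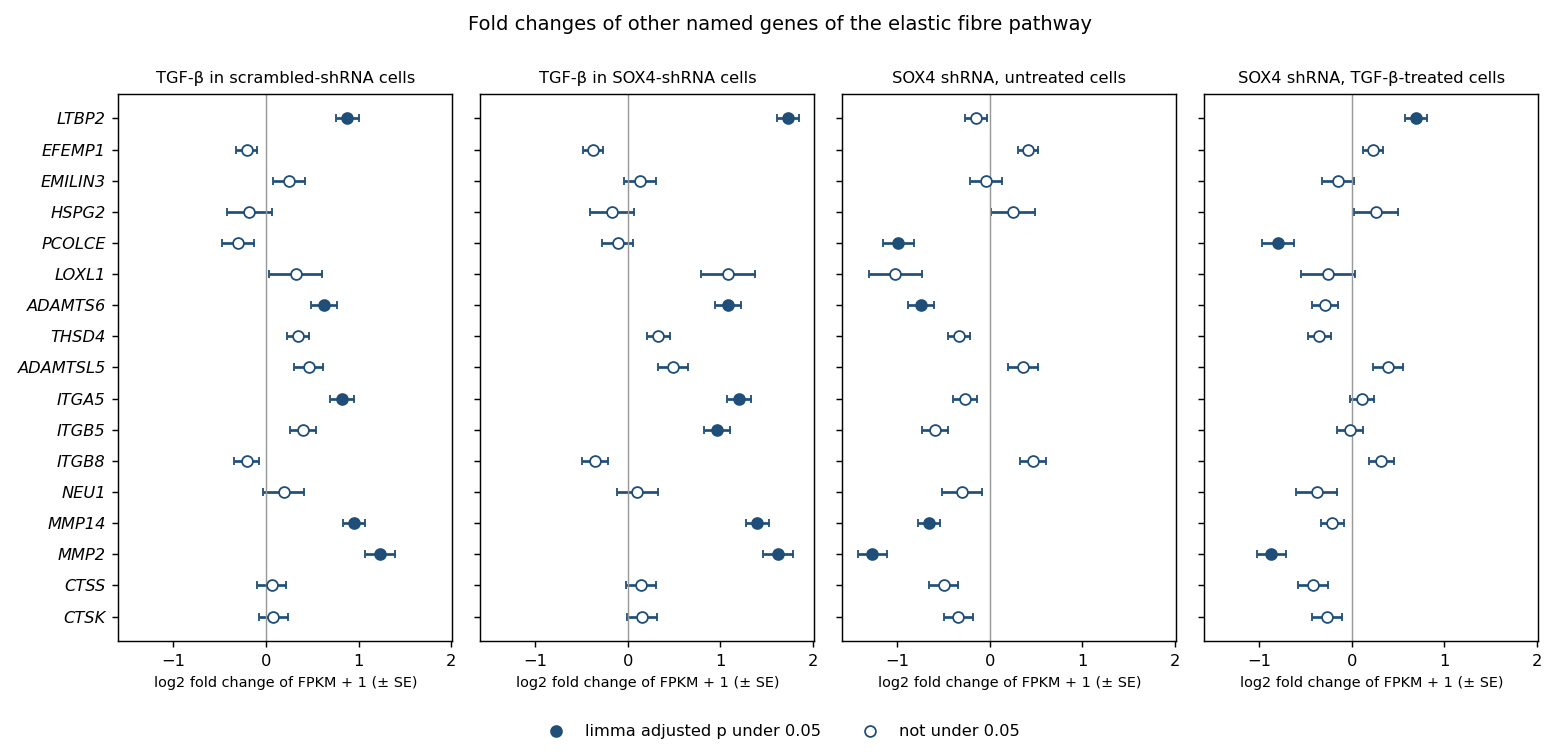
Log2 fold changes of FPKM + 1 (points) with their SE (bars) of 17 further genes of the pathway, named by the smallest p in each list, in the 4 comparisons. Filled points passed a limma adjusted p of 0.05. LTBP2, ITGA5, MMP14 and MMP2 rose with TGF-β on both backgrounds, and PCOLCE and MMP2 were lower with the SOX4 shRNA in both.

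Markers of other cell types were set beside these results. The fibroblast list was lower with the SOX4 shRNA. Of its 9 genes, 7 had values. Their summed level was 87.4 to 96.6 FPKM in untreated and 106 to 116 FPKM in treated scrambled-shRNA cells. In SOX4-shRNA cells it was 44 to 57.2 and 64.2 to 76.8 FPKM. Of the 5 tested, 4 fell with the SOX4 shRNA untreated and 3 with TGF-β. With genes lacking whole reads included in the fit, 3 and 1 of these 5 fell. Over all genes tested 3.67% and 2.92% fell in the fit of whole reads. In that fit TGF-β raised 1 of these 5 in scrambled-shRNA cells and 2 in SOX4-shRNA cells, where 4.66% and 5.54% of all genes rose. THY1, a surface glycoprotein, made up most of the sum at 37.8 to 90.5 FPKM in the 8 libraries. The collagen genes COL1A2 and COL3A1 were at 1.95 to 13.6 and 0.884 to 4.11 FPKM, TWIST1 at 2.52 to 5.62 FPKM and PDGFRB at 0.514 to 2.18 FPKM. LUM and PDGFRA were at most 0.105 and 0.103 FPKM in any library, and DCN and COL1A1 had no usable values. Endothelial markers (4 of 5 with values) summed to 0.127 to 0.279 FPKM and smooth muscle and pericyte markers (4 of 4) to 0.252 to 0.475 FPKM over the 8 libraries. Of the 4 leukocyte markers 3 had values, and their sum was 9.62 to 10.1 FPKM in untreated and 9.70 to 9.85 FPKM in treated scrambled-shRNA cells, against 3.81 to 5.14 and 5.0 to 6.27 FPKM in SOX4-shRNA cells. Nearly all of it was CD68, a lysosomal protein, which fell with the SOX4 shRNA in untreated cells (log2 fold change -1.07 ± 0.17, limma adjusted p = 0.012). PTPRC, which defines leukocytes, was at most 0.0167 FPKM and CD14 was at most 0.438 FPKM. The epithelial and basal markers (4 of 10 with values) summed to 5499 to 6197 FPKM in untreated and 6041 to 6130 FPKM in treated scrambled-shRNA cells, against 4576 to 5277 and 5918 to 5981 FPKM in SOX4-shRNA cells. Their sum was thus also lower with the SOX4 shRNA, with no overlap in either condition. KRT5 and KRT14 made up nearly all of it, and the single genes differed. KRT5 was lower in both conditions, and KRT14 was lower untreated but higher with TGF-β (2837 and 2875 against 2596 and 2649 FPKM). EPCAM was higher (97.0 and 114 against 71.6 and 75.6 FPKM untreated, 99.4 and 69.6 against 59.1 and 55.8 FPKM treated), while CDH1 overlapped. Of 2 genes tested on whole reads, none fell with the SOX4 shRNA. The part of the fibroblast, leukocyte and epithelial lists in the fall of FBN1, FBLN5, MFAP2 and LOX was not tested. In these bulk libraries fewer cells of a type and less RNA per cell cannot be told apart.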

How the data were processed

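RNA of 8 libraries, assigned to 4 groups by their titles, was used as the authors deposited it. Per the submitters' processing notes, the tools were TopHat2 2.0.9, Cufflinks 2.2.1 and Cuffdiff on hg19, and the values were taken as FPKM from these tools and the numbers themselves. Per the labels' protocols, a stranded kit that depletes ribosomal RNA and 75-nt single reads were used, although the molecule is labelled polyA RNA. How libraries were scaled, and whether strand was counted, is not given in the sources used here.

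The decimal mark was missing from 34.1% of the deposited cells, each of which allowed up to 3 readings a factor of 10 apart. A further 13.9% were in damaged exponent notation and taken as below 1e-04 FPKM. Readings were restored in Python 3 from the whole reads behind the FPKM values. Library factors were fitted on 2131 genes, and transcript lengths were searched until 6 or more of the 8 cells were whole. Readings were then weighed by the spread within groups, by the spread of the group means and by a weak prior on the level. This weighing favours readings with small differences within and between groups, and the posteriors depend on it. Of 5736 genes with 1 transcript 91.7% gave whole reads, of 2551 genes with 2 transcripts 52.9%, and the 4 transcripts of MFAP2 were solved separately. Other genes with more than 2 transcripts were not searched for whole reads. A gene with whole reads was used where 1 set of readings held a posterior of at least 0.95. A gene without them was kept where its readings held that posterior up to a common factor of 10. The spread used by limma and the shares of genes called come from genes that passed this cut. The FPKM of genes with several transcripts were summed where whole reads were found, and otherwise 1 transcript stands for the gene. RefSeq identifiers gave a symbol for 97.75% of transcripts.

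Genes with at least 1 FPKM in at least 2 libraries were tested as log2(FPKM + 1), which understates changes of low genes, with limma 3.58.1 (R 4.3.3, moderated by intensity, 4 groups fitted at once, 4 residual degrees of freedom) and Benjamini-Hochberg adjustment over all genes, called under 0.05. The procedure was tested on simulated data. FBLN1 and MFAP5 were tested in a fit of 10007 kept genes that includes genes without whole reads. The members and lists were chosen with earlier results of these data known. All members are named, up to 4 genes per pathway list by the smallest p in any comparison, and 3 genes most like each member by Pearson's r, of which 2 are not reported here. Alternatives were another pseudocount, 2 filters, 2 scalings, no trend, the compared groups alone, replicate blocks, all kept genes, voom, the next decimal reading and leaving out each library. Gene positions come from the GRCh37 (hg19) lift of GENCODE 44.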

Additional observations from a re-analysis of the deposited data

How the results depend on the processing

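Of the 20 alternatives each for the number of members called by TGF-β in SOX4-shRNA cells and by the SOX4 shRNA in untreated and in treated cells, 19 stayed within 1.5 times of 3, 4 and 4. TGF-β in scrambled-shRNA cells, with 3 members called, was less stable: 12 of 20 stayed within 1.5 times, and the count was 5 with the compared groups alone. Leaving out 1 library gave 1 to 4 members there and 2 to 4 for the SOX4 shRNA in treated cells. Keeping only genes with 1 transcript, chosen after seeing the data, removes MFAP2 and LOX from the fit and left 1 member called for TGF-β in either background and 2 for the SOX4 shRNA in untreated cells. The difference of responses was called for 0 members in the 19 alternatives that keep the decimal readings, and for FBN1, FBLN5 and LOX under the next reading given below.

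The replicate numbers of the labels do not pair the libraries across all 4 groups. Same-numbered libraries correlated in their deviations at 0.55 and 0.26 between the shRNAs within a treatment. The values were -0.22 and -0.63 between untreated and treated, and -0.50 and -0.34 where shRNA and treatment both differed. The numbers thus went together between the shRNAs and ran opposite between treatments, and the main fit uses no such pairing. With the replicate number as a block, 1 member was called for TGF-β in scrambled-shRNA cells, 2 for TGF-β in SOX4-shRNA cells, 4 for the SOX4 shRNA untreated and 3 with TGF-β. With the numbers of the treated libraries crossed, an alternative added after seeing the data, these were 5, 4, 4 and 4.

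The next most supported decimal reading, whose posterior was at most 0.00844 for FBN1, FBLN5, FBLN1 and LOX, would turn the log2 fold change of FBLN5 to -2.67 (TGF-β in SOX4-shRNA cells) and 1.47 (SOX4 shRNA untreated), of FBLN1 to -3.15 (TGF-β in scrambled-shRNA cells) and -3.14 (SOX4 shRNA untreated), of FBN1 to 0.98 (SOX4 shRNA with TGF-β) and 2.35 (difference of responses, limma adjusted p = 0.0046), and of LOX to 1.87 and 3.02 (limma adjusted p = 0.0014) in the same comparisons, by construction of 10-fold steps. The difference of responses would be -3.22 for FBLN5 (limma adjusted p = 0.0020) and -2.09 for MFAP2 (limma adjusted p = 0.64, at a posterior of 0.00019). Over the whole table, genes called up and down by TGF-β numbered 302 and 125 in scrambled-shRNA cells and ranged over alternatives from 26 to 810 and from 3 to 827. In SOX4-shRNA cells they numbered 359 and 124, with 161 to 837 and 16 to 682. With the SOX4 shRNA they numbered 89 and 238 untreated, with 5 to 460 and 51 to 646, and 74 and 189 with TGF-β, with 2 to 355 and 34 to 508. Depth limits EFEMP2 and MFAP2, with 3 to 13 reads and, in untreated SOX4-shRNA cells, 7 and 12 reads.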
